A study of Mus musculus with 5 samples.

Results

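Blood vessels of the brain were followed here through 36 genes of endothelial cells, of the pericytes and smooth muscle cells around them (mural cells), and of the blood-brain barrier. Each was read from the probe with the highest mean among those that carry its current or an older symbol. By that rule 32 of the 36 were measured, among 17710 named genes on the array. They comprised 18 of 21 endothelial genes, all 8 transporters and 6 of 7 mural genes. Ly6c1, Ly6a, Nos3 and Myh11 were not analysed here.

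The RNA came from the striatum of 5 male FVB mice aged 12 months. All 5 carried a Huntington's disease transgene, in which GFP is joined to human HTT exon 1 holding 84 CAG repeats, under the human ubiquitin promoter. In 3 of these animals (HD_miR196a) a second transgene with the same kind of promoter supplied the precursor of miR-196a, and the labels record better motor function for these mice. The other 2, called HD, had the Huntington's disease transgene alone and are recorded as having weak motor function. The miR-196a mice were obtained by crossing, the ubiquitin promoter is not restricted to blood vessels, and mice without the Huntington's disease transgene were not analysed here. The comparison therefore asks which vascular transcripts differ with miR-196a overexpression among mice that all carry mutant HTT.

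Endothelial cells of the brain seal their contacts with tight junctions and move nutrients across the cell with dedicated transporters, while efflux pumps return many lipophilic compounds to the blood. Pericytes share the basement membrane of capillaries and help maintain this barrier, and smooth muscle cells wrap arterioles and set their diameter. Leaky and altered vessels have been described in Huntington's disease, which is the background to looking at these genes.

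The agent that separates the groups is a small RNA, and its mature sequence from RefSeq (GRCm38.p6) is shown with that of its relative miR-196b because both carry the same seed, the bases that pair with target transcripts. Capitals mark the seed, bases 2 to 8.

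mmu-miR-196a-5p: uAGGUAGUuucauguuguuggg
mmu-miR-196b-5p: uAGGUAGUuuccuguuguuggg

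In the mouse genome the 196a sequence lies at chr11:96265187-96265208 and at chr15:102973365-102973386, both on the plus strand, and the 196b sequence at chr6:52230129-52230150 on the minus strand. The mature forms differ by A12C, counted from the 5′ end of miR-196a, which lies outside the seed. The labels do not say which precursor the transgene carries, and neither the level of miR-196a nor seed matches in the vascular genes were analysed here.

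The values below are log2 intensities after quantile normalization, so that 1 unit is a doubling, and every difference is HD_miR196a minus HD on that scale. Deposited medians were 160.0 to 166.3 in HD_miR196a mice and 184.3 to 185.6 in HD mice, so the scaling between mice runs with the comparison. Background was gauged from 544 olfactory receptor probes, whose genes striatal tissue hardly expresses: their median level was 4.99 and their 95th percentile 8.31. Of the 32 vascular genes, 14 had a mean below that 95th percentile, as did 9061 of all 17710 named genes. A mean below that percentile is what "within the range of olfactory receptor probes" means below. Markers of medium spiny neurons, the main cell type of the striatum, had 7 of 10 genes measured, with Penk at 14.73 to 15.25 over the 5 mice, while the probe of Drd2, the dopamine receptor of indirect pathway neurons, was between 0.00 and 2.04. In bulk tissue, fewer cells of a type and less RNA per cell cannot be told apart.

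None of the 32 vascular genes passed the test between HD_miR196a and HD mice. Limma gave 0 calls among the 26423 probes at a Benjamini-Hochberg adjusted p under 0.05, a background of 0.0%, and the smallest adjusted p of a vascular gene was 0.979. Of the 32 genes, 17 were higher and 15 lower in HD_miR196a mice, with a median difference of 0.03, against a median of -0.0040 over all named genes. Without scaling between mice the split was 4 higher and 28 lower, while the median of all probes shifted by -0.20, and 18 of the 32 lay above that median. At an unadjusted p under 0.05 limma found 2 vascular genes, Ocln lower and Kdr higher, where 3.71% of all named genes did so, 1.82% higher and 1.89% lower, and 4.16% of all probes. For 9 of the 32 genes, 4 higher and 5 lower, the values of the groups did not overlap, which held for 20.7% of all named genes.

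The intervals bound the differences in scaled probe signal. For probes within the range of olfactory receptor probes they need not bound the difference of the transcript. For 29 of the 32 genes the 95% limma interval lay between -1 and 1, that is within a doubling or a halving in either direction, as it did for 84.9% of all named genes. For 19 of them it lay between -0.5 and 0.5. The 3 genes with wider intervals were the transporters Mfsd2a and Slc16a1 and the smooth muscle actin gene Acta2. Of the 18 genes at or above the olfactory 95th percentile, 16 had intervals between -1 and 1. The number of arrays limits this precision.

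**Figure D1:**
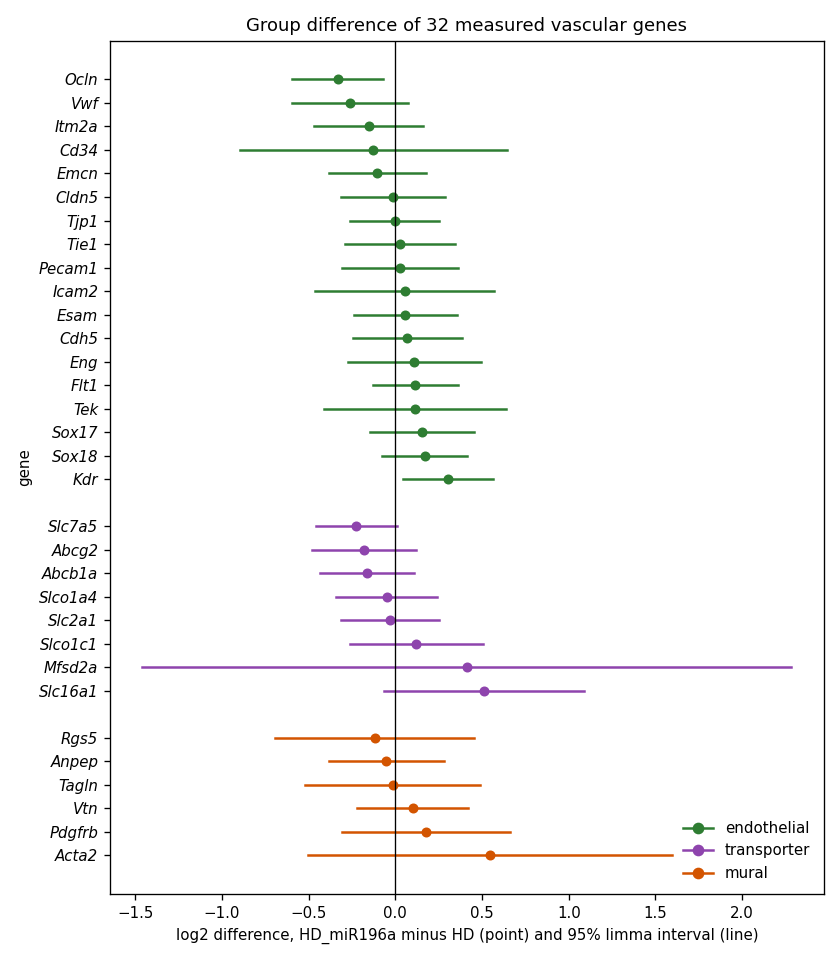
Log2 difference of each of the 32 measured genes (points, HD_miR196a minus HD, 3 against 2 mice) with its 95% limma interval (lines), grouped as endothelial, transporter and mural. Most points lie close to 0, the intervals of Ocln and Kdr leave out 0, and those of Mfsd2a, Slc16a1 and Acta2 reach beyond 1.

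Endothelial genes were split, with 11 of 18 higher and 7 lower in HD_miR196a mice and a median difference of 0.04. All 18 had intervals between -1 and 1, though 9 of the 18 were within the range of olfactory receptor probes.

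Genes of the cell contacts showed little difference apart from occludin. Cldn5 encodes claudin-5, the main sealing protein of the tight junctions of brain endothelium. In the order of mouse number, which is kept below, its level was 10.77, 10.66 and 10.72 with miR-196a overexpression and 10.61 and 10.85 without it. The HD mice lay on either side of the HD_miR196a mice, and the difference was -0.01 ± 0.11 (SE), with a limma interval from -0.31 to 0.28. Tjp1, which encodes the scaffold ZO-1 that ties junction proteins to actin, was at 10.62, 10.48 and 10.48 against 10.51 and 10.55. That is a difference of -0.0040 ± 0.098 (SE) with groups that overlap.

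Ocln encodes occludin, a membrane protein of tight junctions. It was at 6.12, 6.13 and 5.97 in HD_miR196a mice and at 6.41 and 6.40 in HD mice, so each HD_miR196a mouse lay below both HD mice. Its difference was -0.33 ± 0.10 (SE), with a limma adjusted p of 0.979. Over the alternative analyses its difference ranged from -0.48, without scaling, to -0.28. All probes shifted by a median of -0.20 without scaling, and relative to that shift Ocln was at -0.28. Both group means lay within the range of olfactory receptor probes. In the deposited intensities, whose medians were lower in HD_miR196a mice, the values were 65.0, 67.9 and 60.5 against 89.6 and 90.6.

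The adhesion molecules of endothelial contacts differed by at most 0.07 on their bright probes. Cdh5 encodes VE-cadherin of the adherens junction and was at 7.66 ± 0.14 (SD, n = 3) against 7.59 ± 0.05 (SD, n = 2). Esam, an immunoglobulin-type adhesion molecule of tight junctions, was at 9.23 ± 0.13 against 9.17 ± 0.0011. Pecam1, which encodes CD31, had 3 probes, which differed by 0.03 ± 0.13 on the brightest and by -0.10 ± 0.10 and -0.08 ± 0.18 (SE) on the others. All 3 were within the range of olfactory receptor probes, as was Cdh5.

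The receptors that endothelial cells use for growth and survival signals were all 5 higher in HD_miR196a mice, against 48.9% of all named genes. Among the 5, Kdr had the smallest p. Kdr encodes VEGF receptor 2, which carries most of the growth signal of VEGF-A. Its level was 7.84, 7.82 and 7.82 in HD_miR196a mice and 7.61 and 7.43 in HD mice. The HD_miR196a mice were close together and above both HD mice, by 0.31 ± 0.10 (SE, limma adjusted p = 0.979). The difference was 0.13 without scaling, 0.22 without HD mouse 2 and 0.39 without HD mouse 1, and both group means lay within the range of olfactory receptor probes.

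Flt1 encodes VEGF receptor 1, which binds VEGF-A tightly and limits its access to Kdr. It was at 10.36, 10.42 and 10.50 against 10.32 and 10.31, groups that do not overlap, with a difference of 0.11 ± 0.09 (SE). The angiopoietin receptor gene Tek differed by 0.11 ± 0.20, its partner Tie1 by 0.03 ± 0.12, and Eng, which encodes the TGF-beta co-receptor endoglin, by 0.11 ± 0.15 (SE), and in these the groups overlapped. Tek and Tie1, like Kdr, were within the range of olfactory receptor probes. Without scaling 1 of the 5 receptors, Kdr, was higher and 4 were lower, though all 5 stayed above the median shift of all probes. Eng was at -0.06 without HD mouse 1 and Tie1 at -0.12 without HD mouse 2.

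Surface and secreted proteins of endothelium were lower in 4 of 5 measured genes, against 9026 of all 17710 named genes. Vwf, which encodes the clotting protein von Willebrand factor, was at 8.30, 8.52 and 8.32 against 8.75 and 8.53. The groups did not overlap, but the nearest mice of the groups were almost equal, and the difference of -0.26 ± 0.13 (SE) was -0.15 without HD mouse 1. Itm2a, a membrane protein gene rich in brain endothelium, was at 10.97, 10.93 and 10.93 against 10.96 and 11.24, and its difference of -0.15 ± 0.12 (SE) was -0.01 without HD mouse 2. Emcn, an endothelial sialomucin gene, differed by -0.10 ± 0.11 and Icam2, an adhesion molecule for leukocytes, by 0.05 ± 0.20 (SE). Icam2 was within the range of olfactory receptor probes.

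Cd34, a sialomucin gene of capillary endothelium, varied between the HD mice rather than between groups. It was at 9.86, 10.15 and 9.81 in HD_miR196a mice, at 9.62 in HD mouse 1 and at 10.50 in HD mouse 2. The HD mice were thus the lowest and the highest of the 5. The difference was -0.13 ± 0.29 (SE), -0.56 without HD mouse 1 and 0.31 without HD mouse 2.

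The transcription factor genes Sox17 and Sox18, which act in arterial and general endothelial identity, were both higher in HD_miR196a mice and differed by -0.01 without scaling, a setting in which all probes shifted by a median of -0.20. Sox18 was at 8.18 ± 0.05 (SD, n = 3) against 8.01 ± 0.07 (SD, n = 2), groups that do not overlap. Sox17 was at 7.20 ± 0.11 against 7.05 ± 0.10 with overlapping groups. Both were within the range of olfactory receptor probes.

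Transporters of the barrier were lower in 5 of 8 genes, with a median difference of -0.04. For 4 of the 8 the groups did not overlap, 3 of them lower in HD_miR196a mice, where 10.7% of all named genes were lower without overlap. None had an unadjusted limma p under 0.05.

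The glucose transporter gene Slc2a1, which encodes GLUT1 of endothelium and astrocytes, was at 11.04, 10.92 and 11.02 in HD_miR196a mice and at 11.12 and 10.93 in HD mice. The groups overlapped, and the difference was -0.03 ± 0.11 (SE) with an interval from -0.31 to 0.25. Slc7a5, which encodes the large neutral amino acid transporter LAT1, was at 8.55, 8.63 and 8.64 against 8.81 and 8.86. Each HD_miR196a mouse was below both HD mice, with a difference of -0.23 ± 0.09 (SE). Over the alternative analyses the value ranged from -0.43, without scaling, to -0.20. Relative to the shift of all probes, the unscaled value was -0.23. Slc3a2, the heavy chain that partners LAT1, differed by 0.05 ± 0.09 (SE).

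The efflux pumps were both slightly lower. Abcg2, which encodes the breast cancer resistance protein, was at 8.80, 9.06 and 8.98 against 9.13 and 9.13. Its difference of -0.18 ± 0.11 (SE) was -0.11 without HD_miR196a mouse 1. Abcb1a, which encodes P-glycoprotein, was at 7.16 ± 0.09 (SD, n = 3) against 7.32 ± 0.07 (SD, n = 2). In both the groups did not overlap, and Abcb1a was within the range of olfactory receptor probes. Its close paralog Abcb1b differed by -0.72 ± 0.17 (SE), at levels of 3.29 to 4.33 that lie below the median of olfactory receptor probes. Probe sequences were not used here, so signal shared between the paralogs cannot be told apart.

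Slc16a1 encodes the monocarboxylate transporter MCT1, which oligodendrocytes and endothelium use for lactate. It was at 5.54, 5.50 and 5.32 in HD_miR196a mice and at 4.62 and 5.27 in HD mice. HD mouse 1 stood apart from the other 4, and the difference of 0.51 ± 0.22 (SE) became 0.19 without it and 0.86 without HD mouse 2. In deposited intensity the 5 values were 44.0, 44.0 and 38.9 against 25.8 and 41.5, and the gene was within the range of olfactory receptor probes.

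Mfsd2a encodes the lysolipid transporter that carries docosahexaenoic acid into the brain and holds back vesicle transport across endothelium. It was at 9.69 and 9.42 in HD_miR196a mice 1 and 2, at 11.59 in HD_miR196a mouse 3, and at 10.01 and 9.63 in HD mice. In deposited intensity HD_miR196a mouse 3 was at 3060, against 647 to 1128 in the other 4. The difference of 0.41 ± 0.72 (SE), with an interval from -1.46 to 2.28, was -0.27 without that mouse. Of all named genes 2.28% had a wider range over the 5 mice. The organic anion transporters Slco1a4 and Slco1c1, the second a thyroxine carrier also made by astrocytes, differed by -0.05 ± 0.11 and 0.12 ± 0.15 (SE), with overlapping groups.

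**Figure D2:**
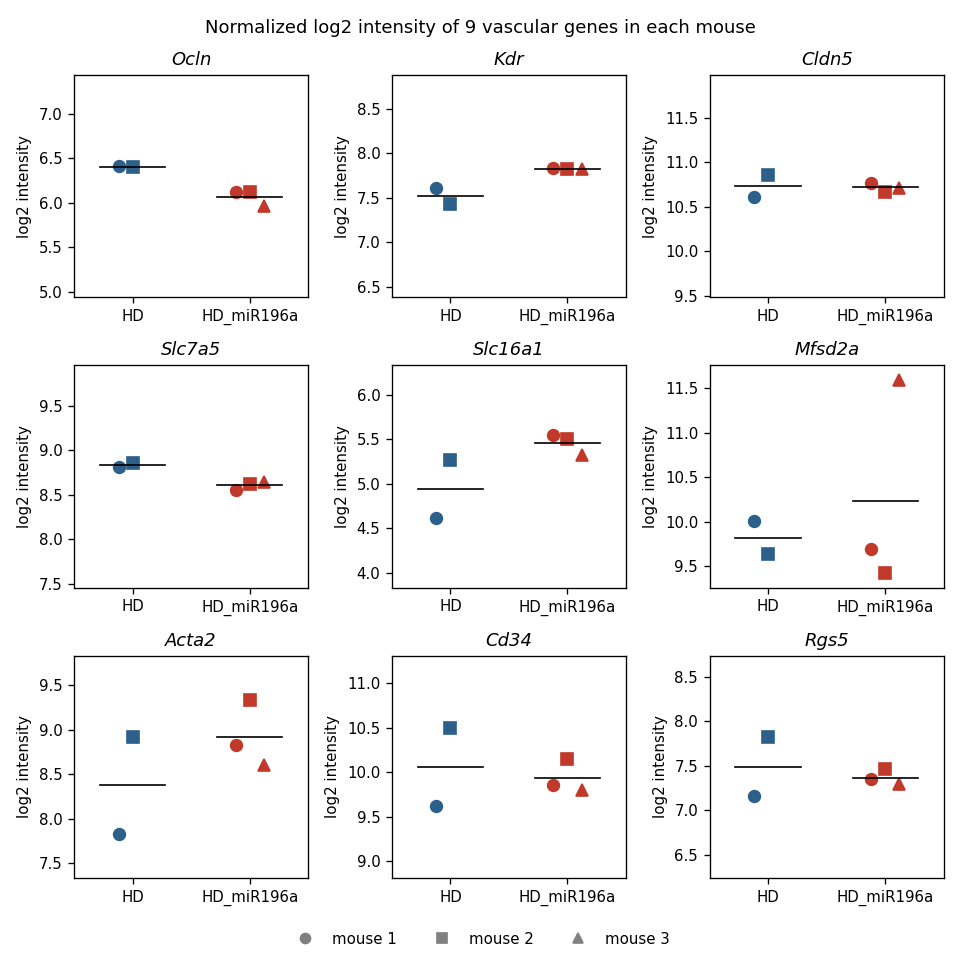
Normalized log2 intensity of 9 genes in each mouse (circle, square and triangle for mice 1, 2 and 3), with the group means as bars and the same axis length in each panel. Ocln, Kdr, Slc7a5 and Slc16a1 have groups that do not overlap, Mfsd2a is set apart by HD_miR196a mouse 3 at 11.59, and in Acta2, Cd34 and Rgs5 HD mouse 1 is the lowest of the 5.

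Mural genes were 3 higher and 3 lower of 6, with a median difference of 0.04, and the groups overlapped in all 6. Vtn, which encodes vitronectin, secreted by brain pericytes, was at 12.20, 12.23 and 12.43 against 12.27 and 12.10, a difference of 0.10 ± 0.12 (SE). Pdgfrb encodes the PDGF receptor that recruits pericytes to vessels. It was at 8.55, 8.99 and 8.94 against 8.51 and 8.79, and HD_miR196a mouse 1 lay between the HD mice. The difference of 0.18 ± 0.19 (SE) ranged from 0.04 to 0.32 with 1 mouse left out, the lowest when HD mouse 1 was dropped and the highest when HD_miR196a mouse 1 was. Anpep, the pericyte aminopeptidase CD13, differed by -0.05 ± 0.13 (SE), within the range of olfactory receptor probes.

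Rgs5, a regulator of G-protein signalling and a pericyte marker, was at 7.35, 7.46 and 7.29 in HD_miR196a mice, at 7.15 in HD mouse 1 and at 7.82 in HD mouse 2. As with Cd34, the HD mice were the lowest and the highest. The difference was -0.12 ± 0.22 (SE), -0.45 without HD mouse 1 and 0.21 without HD mouse 2.

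Of the smooth muscle genes, Acta2 encodes the alpha actin of the contractile apparatus. Its brighter probe was at 8.83, 9.34 and 8.61 in HD_miR196a mice and at 7.83 and 8.92 in HD mice. HD mouse 1 was the lowest by a wide margin, while HD mouse 2 lay within the HD_miR196a range. The difference was 0.55 ± 0.40 (SE). It was -0.00053 when HD mouse 1 was dropped, 1.09 when HD mouse 2 was and 0.34 when HD_miR196a mouse 2 was. A dimmer second probe, at 2.49 to 4.77, differed by -1.003 ± 0.64 (SE). Tagln, which encodes the actin-binding protein transgelin, was at 2.27, 2.66 and 2.18 against 2.24 and 2.53. These levels are below the median of olfactory receptor probes, so the probe says little about the gene.

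Some mice stood at the ends for more members than others, though not alike in the 3 classes. HD mouse 1 was the lowest of the 5 for 11 of the 32 genes, against 17.3% of all named genes. They were Acta2, Rgs5 and Pdgfrb among mural genes, Slc16a1 and Slco1c1 among transporters, and Cldn5, Cd34, Eng, Icam2, Sox17 and Sox18 among endothelial genes. HD mouse 1 was also the highest for 5 of the 32, against 21.1% of all named genes. HD_miR196a mouse 2 was the highest for 9 of the 32, against 16.7% of all named genes, and HD_miR196a mouse 3 was the lowest for 8, against 17.9%. For mural genes the median deviation from the mean of the 5 mice was -0.19 in HD mouse 1 and 0.14 in HD_miR196a mouse 2. For endothelial genes these medians were -0.07 and 0.07. For transporters they were 0.03 and 0.0055, and HD_miR196a mouse 1 was the lowest for 4 of the 8. These are descriptions of single mice, since members share each mouse's dissection and array.

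**Figure D3:**
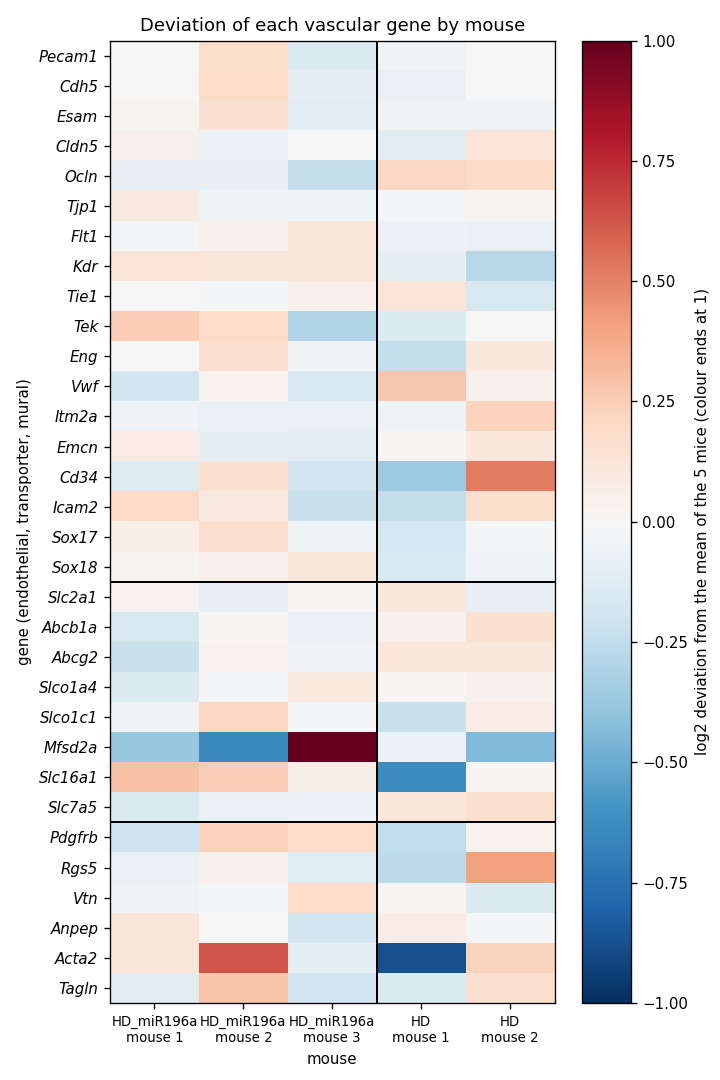
Deviation of each of the 32 genes from its mean over the 5 mice (colour, log2 scale, ending at 1 in either direction), with the 3 HD_miR196a mice on the left and the 2 HD mice on the right. HD mouse 1 has the lowest value for 11 genes, most strongly for Acta2, and the darkest cell is Mfsd2a in HD_miR196a mouse 3, which exceeds the colour scale.

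Markers of other cells also differed between mice. Those of medium spiny neurons had a mean level of 11.41, 11.23 and 11.02 in HD_miR196a mice and 10.70 and 11.07 in HD mice. Of the 7 measured, 6 were higher in HD_miR196a mice, with a median difference of 0.38, and 5 had an unadjusted limma p under 0.05, against 3.71% of all named genes, though none passed after adjustment. In 5 of the 7, each HD_miR196a mouse lay above both HD mice, against 10.0% of all named genes. The mean levels include Drd2, at or near the floor with 2.04, 0.54 and 0.00 in HD_miR196a mice and 0.14 and 1.64 in HD mice. The order of the mice in those means depends in part on that probe. For 5 of the 7 the lowest mouse was HD mouse 1, which was also the lowest for 11 vascular genes. For cortical neurons, whose tissue borders the striatum, 8 of 9 genes were measured, and their mean level was 8.20, 10.32 and 10.01 in HD_miR196a mice and 8.72 and 10.54 in HD mice. HD mouse 1 and HD_miR196a mouse 1 were thus the lowest in both groups, and none of the 8 was at 0. Markers of perivascular fibroblasts and meninges, 10 of 10 measured, had a mean level of 7.86, 8.81 and 8.20 against 8.26 and 8.16, and 6 of the 10 were highest in HD_miR196a mouse 2. Perivascular macrophage markers, 7 of 8 measured, were at 6.91, 7.57 and 7.25 against 7.23 and 7.30, with 5 highest in the same mouse. Astrocyte markers, 7 of 8 measured, were at 12.75 to 13.02 in HD_miR196a mice and at 11.04 and 12.71 in HD mice, and that of HD mouse 1 includes Slc1a3 at 0. Without Slc1a3 the other 6 genes averaged 12.91, 12.74 and 12.77 against 12.88 and 12.73. Choroid plexus markers, 9 of 9 measured, were at 7.13 to 7.59 and at 7.41 and 7.11. The haemoglobin genes were not analysed here, and the blood markers measured were 2 of 9, at 6.02 to 6.65 and at 6.39 and 6.05. The part of these cells in the differences between mice was not tested. Leaving out mouse 1 of each group, the mice low in cortical markers, left HD mouse 2 as the only HD mouse. The difference was then -0.52 for Cd34, -0.44 for Rgs5 and 0.39 for Kdr. It was 0.04 for Acta2, 0.14 for Slc16a1 and -0.11 for Vwf.

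Genes that act on or beside these 32 in the vessel wall were read from 6 further lists, of which 101 of 113 genes were measured. Limma called none of them, and the smallest adjusted p was 0.979. Of the 101, 50 were higher and 51 lower, with a median difference of -0.0024. At an unadjusted p under 0.05 there were 5 genes, Kcnj8 higher and Abcb1b, Slc7a1, Cald1 and Cnn1 lower, against 3.71% of all named genes, and 27 had groups without overlap, against 20.7%. The mean was within the range of olfactory receptor probes for 53 of the 101, against 9061 of all 17710 named genes. Among the 53 were Flt4, Foxq1, Klf4, Icam1, Cavin2, Cald1 and Kcnj8.

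Angiogenic ligands, receptors and targets were 10 higher and 11 lower of 21. Vegfa, the ligand of Kdr and Flt1, was at 12.05 ± 0.03 (SD, n = 3) against 11.91 ± 0.02 (SD, n = 2), with a difference of 0.14 ± 0.09 (SE) and groups that do not overlap. The co-receptor gene Nrp2 differed by 0.31 ± 0.15 (SE) and Flt4, the VEGF-C receptor of lymphatic vessels, by 0.17 ± 0.09. Genes of Wnt signalling, which induces the barrier, were 8 higher and 8 lower of 16. The co-receptor gene Lrp6 differed by -0.23 ± 0.10 and the forkhead factor gene Foxq1 by 0.22 ± 0.12 (SE).

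Endothelial regulators, a list that also holds the pericyte factor gene Foxf2, were 6 higher and 6 lower of 12. Lmo2, a cofactor of endothelial and blood cell transcription, was at 11.05 ± 0.10 against 10.70 ± 0.21, a difference of 0.35 ± 0.14 (SE). Klf4, a flow-responsive factor, differed by -0.36 ± 0.17 (SE). Other junction, caveola and leukocyte adhesion genes were 7 higher and 10 lower of 17, with Icam1 at -0.21 ± 0.13 and Cavin2, a caveola coat gene, at -0.36 ± 0.23, its HD mean raised by HD mouse 1 at 8.45 against 7.64 to 7.80 in the other 4.

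Other barrier transporters and receptors were 7 higher and 10 lower of 17. Slc7a1, a cationic amino acid transporter, was at 10.55, 10.23 and 10.45 against 10.73 and 10.76, a difference of -0.33 ± 0.13 (SE). Other mural genes were 12 higher and 6 lower of 18, against 48.9% higher of all named genes, and 7 had groups that do not overlap, against 20.7%. Cald1, which encodes the actin-binding protein caldesmon, differed by -0.33 ± 0.11 (SE), and Kcnj8, the pericyte potassium channel gene, which was chosen after its values were seen, by 0.30 ± 0.10. Cnn1, a smooth muscle calponin gene, differed by -1.18 ± 0.33 (SE) at levels of 0.00 to 1.80, which are at or near the floor.

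**Figure D4:**
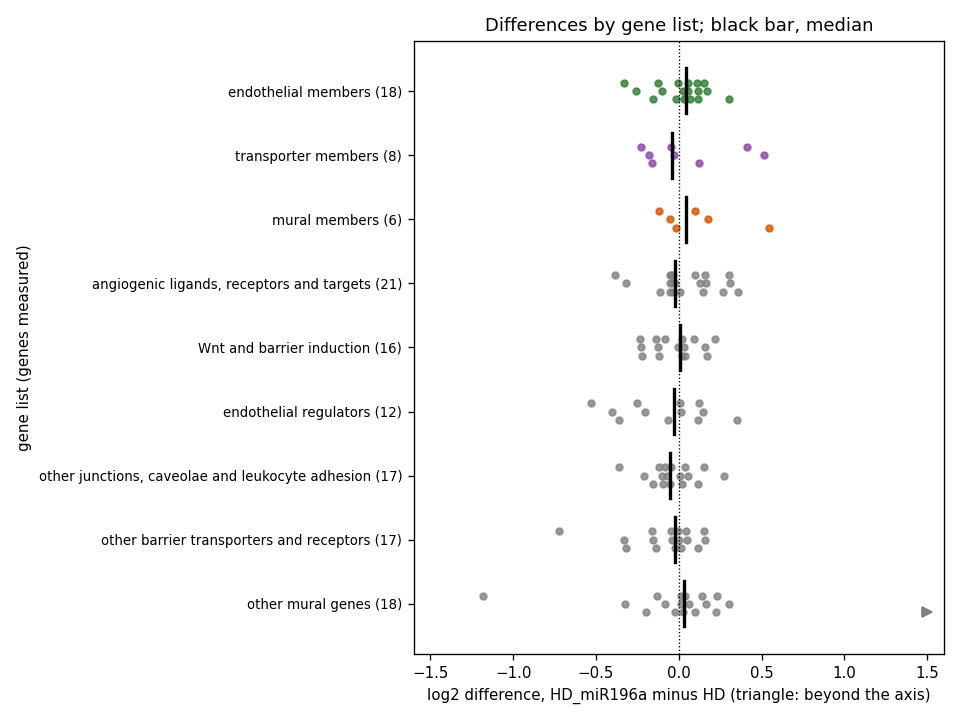
Log2 difference (HD_miR196a minus HD) of each measured gene in the 3 classes of the 32 genes (coloured) and in the 6 lists of other vascular genes (gray), with the number measured in brackets and the median as a black bar. The medians lie near 0 in every list, from -0.05 to 0.04, and the triangle is Pln, beyond the axis at 3.25.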

How the data were processed

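The authors deposited 1 linear, background-subtracted intensity per probe and mouse, with the 2 technical repeats of each mouse combined, per the labels. Per the labels' protocols, Trizol RNA was amplified and labelled with Cy5. No source used here names the scanner, its software or any scaling. Intensities were quantile-normalized, floored at 1, log2-transformed and fitted by lmFit and eBayes of limma (version 3.58.1, under R 4.3.3), HD_miR196a minus HD, two-sided, with Benjamini-Hochberg adjustment over 26423 probes; residual degrees of freedom were 3 and the prior added 1.75. Errors of differences are limma's moderated SE. The fit was tested on simulated data. Those data held independent noise, with no shared mouse effects and no scaling between mice, so the test does not bear on these features. Of 20377 probes with a platform symbol, 18213 matched a RefSeq symbol (GRCm38.p6), 2126 a synonym, and 38 an ambiguous synonym, which were left unnamed.

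The vascular genes, lists and tests were chosen with earlier results of these data known. Values in every mouse were given for the 3 brightest members of each class, the 3 with the smallest p, those over 0.3 without overlap, and smooth muscle genes, and for each other list the 2 genes with the smallest p were named. Cd34, Rgs5, Flt1, Vegfa, Slc3a2 and Kcnj8 were added after their values were seen. Alternatives covered scaling, floor, filters, variance moderation, weights, mouse numbers, mice left out and probe choice.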

Additional observations from a re-analysis of the deposited data

How the results depend on the processing

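The count of 0 called probes became 2 at an adjusted p under 0.10, 1 among the brightest 75% of probes, 3 with trend and robust settings and 4 with a floor of 32, and 0 to 3 with 1 mouse left out. None of the probes called at 0.05 in these fits belonged to a vascular gene of the 32. At an unadjusted p under 0.05 it was 1099. Without scaling the median differences were -0.15 for endothelial, -0.26 for transporter and -0.14 for mural genes, while all probes shifted by -0.20. Relative to that shift they were 0.05, -0.06 and 0.06. Without mouse 1 of each group, HD mouse 2 was the only HD mouse. The medians were then -0.0496 for endothelial, 0.0099 for transporter and -0.018 for mural genes, each of opposite sign to that with all mice. Leaving out 1 mouse gave -0.010 to 0.104 for endothelial, -0.139 to -0.019 for transporter and -0.0045 to 0.181 for mural genes, with the lowest transporter value without HD_miR196a mouse 3, the mouse high in Mfsd2a. With the mouse number as a replicate block the transporter median was -0.138, the endothelial 0.09 and the mural 0.05, with 0 probes called. Deviations of same-numbered mice correlated at 0.24 and 0.17 across probes, over 2 shared numbers. The deviations of the 2 HD mice mirror each other, so these values are not separate checks. Whether equal numbers pair mice is not stated in the labels. Of 355 values of single genes in settings that refit the difference, 58 moved by more than the spread between mice and 51 changed sign, with no call in any. Kdr and Slc16a1 stayed higher and Ocln, Vwf, Itm2a, Emcn, Abcb1a, Abcg2 and Slc7a5 lower in every alternative run, some of which leave the difference unchanged by construction. The run without scaling, in which all probes shifted by -0.20, favours a lower sign. Flt1, Sox17, Sox18, Pdgfrb and Vtn were higher in every run except that without scaling. Low signal limits 14 of the 32 genes and 53 of the 101 others, as it does 9061 of all 17710 named genes.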

Other observations

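Genes of the vessel wall with wide differences between single mice were looked up after their values were seen. Pln encodes phospholamban, the regulator of the calcium pump in muscle. It was at 5.77 in HD_miR196a mouse 1, at 9.81 and 9.15 in HD_miR196a mice 2 and 3, and at 4.44 and 5.55 in HD mice, and its difference of 3.25 ± 1.33 (SE) did not pass the threshold (limma adjusted p = 0.979). Each HD_miR196a mouse lay above both HD mice, but the level in HD_miR196a mouse 1 was close to that of HD mouse 2. The spread was wider within the HD_miR196a group (SD 2.17) than within the HD group (SD 0.78). Foxf2, a forkhead factor of brain pericytes, was at 8.83, 8.72 and 7.01 in HD_miR196a mice and at 8.68 and 8.20 in HD mice, lowest in the mouse whose Mfsd2a was highest. The means of both genes over the 5 mice were within the range of olfactory receptor probes. Single values lay above its bound of 8.31, namely Pln in HD_miR196a mice 2 and 3 and Foxf2 at 8.83, 8.72 and 8.68. Ttr, the transthyretin gene of choroid plexus, reached 10.64 in HD_miR196a mouse 1, while the remaining 4 mice lay between 7.09 and 7.70. The other choroid plexus markers did not follow it as a set. Of the 9, 4 including Ttr were highest in HD_miR196a mouse 1 and 3 in HD mouse 1. Kcnj13 was lowest in HD_miR196a mouse 1, at 3.70.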
